A study of Mus musculus with 7 samples.

Results

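The genes described here encode 10 enzymes and core partners that write, copy or remove DNA methylation (Dnmt1, Uhrf1, Dnmt3a, Dnmt3b, Tet1, Tet2 and Tet3) or that form Polycomb repressive complex PRC2 (Ezh1, Ezh2 and Suz12). They were chosen by name, through the GENCODE M21 symbol of each Ensembl identifier, and 10 of 10 were found among the 46603 genes counted. RNA was sequenced from tumors of Balb/c nude mice, a strain that lacks most T cells, all females 16 weeks of age. The animals had been injected with mouse embryonic fibroblasts (MEFs) of a stable line and followed for up to 30 days, with 5 mice in each group. In the KO group the injected cells lacked nuclear myosin 1 (NM1), removed by CRISPR/Cas9 editing. In the KO+NM1 group the same KO cells carried a lentivirus encoding NM1 with HA and V5 tags and had been neomycin selected and taken through single clones, so that both groups share the deletion and the second also carries the vector. No tumor of unedited cells was analysed here. The 7 libraries are 3 pieces of KO tumor and 4 pieces of KO+NM1 tumor. Per the descriptions of the samples, each condition gave 1 tumor, which was cut up and homogenized piece by piece, while the methods write of several tumors, so every SD and test covers the spread between pieces and may hold no difference between mice.

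DNA methylation at CpG sites is copied after replication by Dnmt1, which Uhrf1 brings to half-methylated DNA. Dnmt3a and Dnmt3b place methyl groups on unmethylated DNA, and the Tet dioxygenases oxidize methylcytosine, a step on the way to its removal. PRC2 methylates lysine 27 of histone H3 through either of its catalytic subunits, Ezh2 or Ezh1, and needs Suz12 and Eed to be active. Ezh2 is known as the form of dividing cells and Ezh1 as the form that also persists in resting cells, and Dnmt1 and Uhrf1 are likewise known to be expressed mainly in cycling cells.

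Between 24088309 and 28326568 reads were counted on genes in each piece. Levels are given as CPM, the reads of a gene scaled to library size with TMM factors, and a count of 3, the limit that a count of 0 allows, was worth 0.0991 to 0.148 CPM (counting error only). Myo1c, the gene that encodes NM1, had a mean of 303 ± 12.1 CPM in the KO pieces (SD, n = 3) and of 408 ± 23.1 CPM in those of KO+NM1 (SD, n = 4), with a log2 fold change, here always KO over KO+NM1, of -0.43 and an adjusted p of 0.0310 from edgeR. Counts per gene do not tell its isoforms apart, nor injected cells from host cells. Of 14 genes of S phase and mitosis, 14 were higher in KO, and their summed level was 2776 to 3463 CPM in the KO pieces and 95.2 to 308 CPM in the KO+NM1 pieces. The pieces also differed in tissue markers. Skeletal muscle markers summed to 2192 to 19260 CPM in KO and 50.6 to 174 CPM in KO+NM1, where Ckm, Myh4 and Myog held 3 counts or fewer in every piece. White adipocyte markers summed to 114 to 298 CPM against 4526 to 33020 CPM, and endothelial markers to 183 to 209 CPM against 1011 to 1306 CPM. Of 8 fibroblast markers, those of the injected cell type, 4 were lower in KO (Dcn, Lum, Pdgfra and Pdgfrb) and 0 higher. The sum of the 8 was 7198 to 12990 CPM in KO and 2847 to 13010 CPM in KO+NM1, and without the 3 collagens Col1a1, Col1a2 and Col3a1 it was 394 to 591 CPM against 785 to 3355 CPM. Of 7 macrophage markers, 5 were higher in KO, 0 were lower, and 2 were not called (Lyz2 and Cd163). The sum of the 7 overlapped, with 1762 to 2009 CPM in KO and 468 to 2233 CPM in KO+NM1, where piece 01 was the highest. Without Lyz2 the sum was 876 to 986 CPM in KO and 272 to 384 CPM in KO+NM1. Cd163, which is still in that sum, went the other way, with a mean of 11.2 CPM in KO and 27.0 CPM in KO+NM1. The sums without Lyz2 or the collagens were formed after the values were seen. Keratinocyte marker sums overlapped, with 7.43 to 1065 CPM against 60.0 to 440 CPM. The KO pieces also differed among themselves. KO piece 02 held 1065 CPM of keratinocyte markers, against 25.2 and 7.43 CPM in KO pieces 01 and 03. KO piece 01 held 2192 CPM of skeletal muscle markers, against 19260 and 15010 CPM in KO pieces 02 and 03. Its S phase and mitosis sum was the highest in KO, at 3463 CPM against 2776 and 2829 CPM. KO+NM1 piece 01 stood apart from pieces 02 to 04, with Lyz2 at 1898 CPM against 196 to 272 CPM in the others of its group, a B and plasma cell marker sum of 3647 CPM against at most 39.9 CPM in any other piece, and the highest level of S phase and mitosis genes of its group. Its white adipocyte and fibroblast marker sums were the lowest of the group, at 4526 and 2847 CPM. Pieces 02 to 04 held 23100 to 33020 CPM and 7533 to 13010 CPM of these. For skeletal muscle markers piece 01 was the highest of the group, at 174 CPM against 50.6 to 68.6 CPM. For keratinocyte markers piece 01 was the lowest, at 60.0 CPM against 151 to 440 CPM. In such bulk tissue, fewer cells of a type and less RNA per cell cannot be told apart. The part of these cell types, of cell division and of KO+NM1 piece 01 in the differences described here was not tested. Values without KO+NM1 piece 01 are given.

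At an adjusted p under 0.05 (edgeR, over all genes tested), 4 of the 10 enzyme genes were higher in the KO pieces (Uhrf1, Ezh2, Dnmt1 and Suz12), 1 was lower (Ezh1), and 5 did not pass (Dnmt3a, Dnmt3b, Tet1, Tet2 and Tet3). In the same fit, 25.7% of the 16887 tested genes were higher and 24.5% were lower, so such a share is common here. Each of the 10 had enough reads to be tested. For 5 of them no KO piece fell within the range of the KO+NM1 pieces, which was so for 57.0% of all tested genes. The median log2 fold change was 0.74 over the 10 and -0.0017 over all genes tested.

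**Figure D1:**
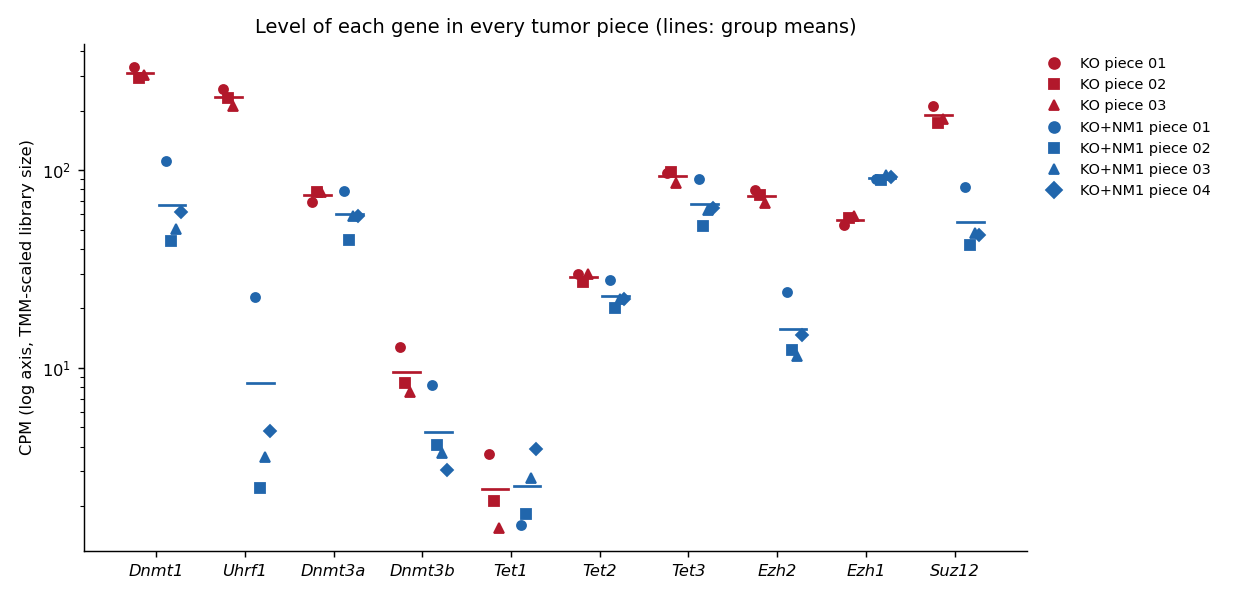
Level of each of the 10 genes in every tumor piece, in CPM on a log axis, with KO pieces in red, KO+NM1 pieces in blue, a marker shape for each piece number and a line at each group mean. Red and blue points are apart for Dnmt1, Uhrf1, Ezh2, Ezh1 and Suz12 and overlap for the other 5 genes, and Ezh1 is the gene whose blue points lie above the red ones.

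The start regions of these genes were read to show what the DNA in front of them holds. RefSeq windows of the GRCm38.p6 build, from 250 bases before to 50 bases after a gene start, were given for 10 of the 10 genes (15 windows, since some genes have several starts). They were searched on both strands for 3 sets of letters known from cell cycle promoters, namely TTTCCCGC, TTTCGCGC, TTTGCCGC or TTTGGCGC (E2F letters), TTTGAA (CHR letters) and CCAAT. The E2F letters occurred in a window of 4 genes, Dnmt1, Uhrf1, Ezh2 and Suz12, and in no window of the other 6. Dnmt1 had 3 windows and Uhrf1 had 2, and in both genes only 1 window held these letters. Dnmt3a also had 3 windows. The CHR letters occurred in 3 genes (Dnmt1, Dnmt3b and Suz12) and CCAAT in 5 (Dnmt1, Uhrf1, Tet3, Ezh2 and Suz12). Whether any of these letters bear on the calls was not tested. Of all 27025 genes with a window, 2.6% held the E2F letters in at least 1 window, 20.2% the CHR letters and 41.1% CCAAT. Counted over the 32851 windows, the shares were 2.26%, 17.9% and 37.4%. Of tested genes with a window, 6.17% of those higher in KO, 2.81% of those lower and 4% of those not called held the E2F letters. A match of letters is a description and not a bound site. One match of each gene is shown on the strand of the gene, 5′ to 3′, with the E2F letters in capitals, and none of them shares a base with CHR letters or CCAAT. The Dnmt1 match is on the opposite strand and so reads as the reverse complement, and the same window holds another near its end. The windows of the Dnmt1, Uhrf1 and Ezh2 matches belong to starts inside the annotated gene. The Dnmt1 window with its start at 20959888, the annotated start of the gene, held no E2F letters. The bases shown for Dnmt1 and Ezh2 overlap an annotated UTR exon, and those shown for Uhrf1 and Suz12 lie in no annotated exon of their gene.
Dnmt1, chr9:20952824-20952853, minus strand: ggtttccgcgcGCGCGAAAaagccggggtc
Uhrf1, chr17:56304117-56304146, plus strand: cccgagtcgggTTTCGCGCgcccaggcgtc
Ezh2, chr6:47595009-47595038, minus strand: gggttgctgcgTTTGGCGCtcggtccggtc
Suz12, chr11:79992876-79992905, plus strand: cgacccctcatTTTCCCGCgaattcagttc

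The 200 bases before a start are shown in full for Uhrf1, the gene with the largest difference, and for Ezh1, the gene that was lower in KO. For Uhrf1 the window with E2F letters was taken, whose start is at 56304313. The other Uhrf1 window, with its start at 56303337, held CCAAT and no E2F letters, so the 2 stretches shown are not a comparison of the genes. Capitals mark E2F letters, CHR letters and CCAAT on either strand. The Uhrf1 stretch holds 1 set of E2F letters and 2 copies of CCAAT, and none of the searched letters occurs in the Ezh1 stretch, which says only that these letters are not in these bases.
Uhrf1, chr17:56304113-56304312, plus strand: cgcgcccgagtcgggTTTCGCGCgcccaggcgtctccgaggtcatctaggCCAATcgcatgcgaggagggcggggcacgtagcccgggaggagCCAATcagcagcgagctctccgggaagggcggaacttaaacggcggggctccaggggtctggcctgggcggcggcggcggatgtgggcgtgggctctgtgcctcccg
Ezh1, chr11:101226464-101226663, minus strand: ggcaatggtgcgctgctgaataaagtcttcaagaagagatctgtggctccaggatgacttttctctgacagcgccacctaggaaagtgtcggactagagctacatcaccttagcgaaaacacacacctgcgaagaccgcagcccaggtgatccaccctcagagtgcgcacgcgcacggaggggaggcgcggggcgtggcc

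Of the genes that maintain DNA methylation, both were higher in the KO pieces. Dnmt1, the maintenance methyltransferase (ENSMUSG00000004099, GRCm38 chromosome 9 from 20907209 to 20959888, minus strand), reached 332, 294 and 301 CPM in KO pieces 01 to 03 and 111, 44.0, 50.1 and 61.1 CPM in KO+NM1 pieces 01 to 04. Every KO piece lay well above every KO+NM1 piece, and piece 01 was the highest of the KO+NM1 group. The means were 309 ± 20.5 CPM (SD, n = 3) and 66.6 ± 30.5 CPM (SD, n = 4), and the log2 fold change was 2.21 (standard error 0.33, 95% interval 1.45 to 2.98, adjusted p = 0.00190), or 4.64-fold.

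Uhrf1, the partner that recognizes half-methylated CpG and recruits Dnmt1 (ENSMUSG00000001228, chromosome 17 from 56303321 to 56323486, plus strand), showed the largest difference of the 10. It reached 258, 230 and 212 CPM in the KO pieces and 22.7, 2.48, 3.56 and 4.77 CPM in the KO+NM1 pieces. The counts behind the 4 KO+NM1 values were 623, 61, 72 and 116 reads. The KO+NM1 pieces were thus far below the KO pieces but unequal among themselves, with piece 01 at 6.31 times the mean of the others. The log2 fold change was 4.80 (standard error 0.75, 95% interval 3.03 to 6.56, adjusted p = 0.00327), which is 27.8-fold. Against pieces 02 to 04 only, the KO mean was 64.8 times higher for Uhrf1 and 5.97 times higher for Dnmt1.

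Neither de novo methyltransferase passed the threshold. Dnmt3a (ENSMUSG00000020661, chromosome 12 from 3806007 to 3914443, plus strand) had 69.1, 77.8 and 77.3 CPM in the KO pieces and 78.5, 44.3, 58.3 and 58.6 CPM in the KO+NM1 pieces, where piece 01 was above all KO pieces and the other 3 below them. Its log2 fold change was 0.32 (95% interval -0.15 to 0.79, adjusted p = 0.217). Dnmt3b (ENSMUSG00000027478, chromosome 2 from 153649450 to 153687730, plus strand) was lower in level, at 12.7, 8.38 and 7.56 CPM against 8.21, 4.07, 3.71 and 3.04 CPM. Only KO+NM1 piece 01 reached into the KO range for Dnmt3b, and the log2 fold change of 1.00 (95% interval 0.05 to 1.96) had an unadjusted p of 0.0412 and an adjusted p of 0.0751 from edgeR.

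The 3 Tet genes did not pass either. Tet3 (ENSMUSG00000034832, chromosome 6 from 83362373 to 83459084, minus strand) had 96.9, 98.4 and 86.5 CPM in the KO pieces and 90.3, 52.1, 63.1 and 64.3 CPM in the KO+NM1 pieces (log2 fold change of 0.48, 95% interval 0.0098 to 0.94, adjusted p = 0.0815). Tet2 (ENSMUSG00000040943, chromosome 3 from 133463679 to 133545139, minus strand) had 27.2 to 29.8 CPM in KO and 20.0 to 27.7 CPM in KO+NM1 (log2 fold change of 0.33, 95% interval -0.05 to 0.70, adjusted p = 0.126). For both genes KO+NM1 piece 01 was the highest of its group and lay within the KO range, while pieces 02 to 04 lay below it. Tet1 (ENSMUSG00000047146, chromosome 10 from 62804570 to 62908996, minus strand) was the lowest of the 10 in both groups, with 110, 61 and 47 counts in the KO pieces and 44, 45, 56 and 95 counts in the KO+NM1 pieces. Its levels of 3.67, 2.12 and 1.55 CPM against 1.60, 1.83, 2.77 and 3.91 CPM covered the same range, with a log2 fold change of -0.05 and a wide 95% interval of -1.11 to 1.02 (adjusted p = 0.942).

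The 4 genes Dnmt3a, Dnmt3b, Tet2 and Tet3 depended on KO+NM1 piece 01. Without it each passed, with log2 fold changes of 0.35 (adjusted p = 0.0487), 1.28 (0.00365), 0.30 (0.0426) and 0.52 (0.00485) from edgeR, and 8 of the 10 genes were then higher in KO. Calls were also more common over all genes in that fit, with 35.8% higher and 36.0% lower of 16617 tested. The marker sums of piece 01 that differ from those of its group are given above.

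**Figure D2:**
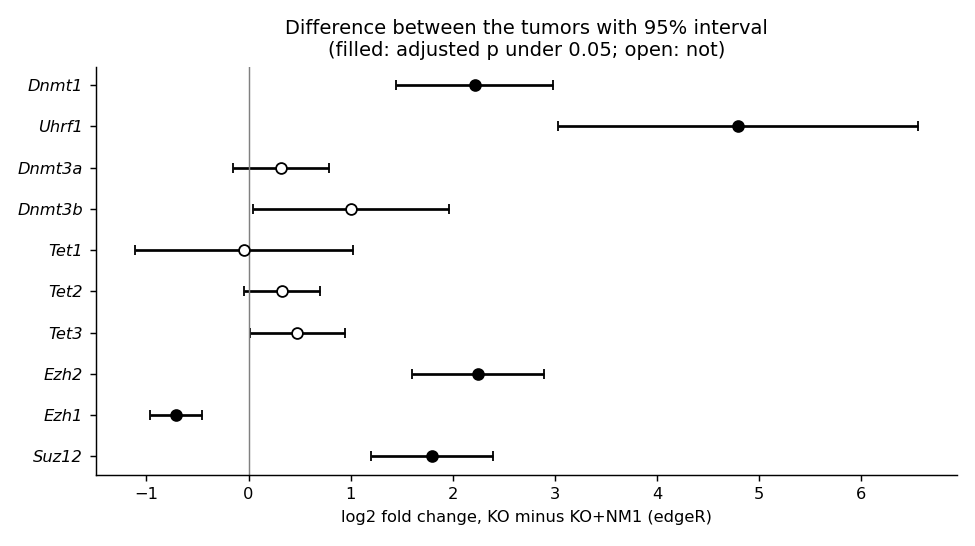
log2 fold change of each gene, KO minus KO+NM1, with its 95% interval from edgeR (7 libraries), filled where the adjusted p was under 0.05. Dnmt1, Uhrf1, Ezh2 and Suz12 lie right of 0, Ezh1 lies left of it, and the 5 open points lie between -0.05 and 1.00.

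The catalytic subunits of PRC2 moved in opposite directions. Ezh2 (ENSMUSG00000029687, chromosome 6 from 47530139 to 47595341, minus strand) reached 79.3, 75.2 and 68.6 CPM in the KO pieces and 24.3, 12.3, 11.5 and 14.6 CPM in the KO+NM1 pieces. The groups were well apart, with KO+NM1 piece 01 at 1.89 times the mean of the other 3. The means of 74.4 ± 5.41 CPM (SD, n = 3) and 15.7 ± 5.87 CPM (SD, n = 4) made the log2 fold change 2.25 (standard error 0.27, 95% interval 1.60 to 2.89, adjusted p = 0.00109), or 4.74-fold.

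Ezh1 (ENSMUSG00000006920, chromosome 11 from 101191115 to 101226463, minus strand) had 52.8, 57.2 and 58.4 CPM in the KO pieces and 90.0, 89.3, 94.8 and 92.8 CPM in the KO+NM1 pieces. It was the steadiest of the 10 within the KO+NM1 group, with a coefficient of variation of 2.77%, and piece 01 did not stand apart there. The log2 fold change was -0.71 (standard error 0.11, 95% interval -0.96 to -0.46, adjusted p = 0.00215), a level 1.63 times higher in KO+NM1.

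Suz12, the subunit that holds the PRC2 core together (ENSMUSG00000017548, chromosome 11 from 79993106 to 80034123, plus strand), followed Ezh2 in direction. It reached 212, 174 and 182 CPM in the KO pieces and 81.8, 41.8, 47.9 and 47.0 CPM in the KO+NM1 pieces, with every KO piece above every KO+NM1 piece. The log2 fold change was 1.79 (standard error 0.25, 95% interval 1.20 to 2.39, adjusted p = 0.00160), or 3.47-fold. Dnmt3a, Tet2, Ezh2 and Suz12 share 43 to 178 exon bases with a gene on the other strand, and since the strand setting of the counting was not stated, reads there cannot be assigned. The overlapping genes held at most 42 counts in any piece.

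Ratios between paired genes, taken within each library, do not depend on scaling between libraries. The log2 ratio of Ezh2 to Ezh1 counts was 0.59, 0.40 and 0.23 in the KO pieces and -1.89, -2.86, -3.04 and -2.67 in the KO+NM1 pieces. In the KO pieces Ezh2 thus gave more reads than Ezh1, and in the KO+NM1 pieces it gave fewer in every piece. The difference of 3.02 in the log2 ratio is 8.10-fold (exact permutation test, two-sided, with p = 0.0286 as the lowest possible for 3 pieces against 4, and 0.0571 after Benjamini-Hochberg adjustment over the 8 pairs compared). For Uhrf1 to Dnmt1 the log2 ratio was -0.36, -0.35 and -0.51 in KO and -2.29, -4.14, -3.81 and -3.67 in KO+NM1. Uhrf1 was therefore lower relative to Dnmt1 in each KO+NM1 piece, by 3.07 on the log2 scale between group means, with the same exact permutation p of 0.0286 and adjusted p of 0.0571.

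The ratio of Dnmt1 to Dnmt3a, of maintenance to de novo methyltransferase, had a mean of 2.05 ± 0.19 (SD, n = 3) in KO and 0.08 ± 0.30 (SD, n = 4) in KO+NM1 on the log2 scale, a difference of 1.96. The ratio of Suz12 to Ezh2 was higher in KO+NM1, at 1.81 ± 0.16 (SD, n = 4) against 1.35 ± 0.12 (SD, n = 3), a difference of -0.47. In both, the pieces of the groups did not overlap, and the exact permutation p was 0.0286 (0.0571 adjusted). The other 4 pairs overlapped. Their log2 ratios differed by 0.73 for Dnmt3b to Dnmt3a, 0.17 for Tet3 to Tet2, -0.39 for Tet1 to Tet2 and -0.56 for Tet1 to Tet3, with exact permutation p-values of 0.114 to 0.429. No pair passed 0.05 after adjustment.

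**Figure D3:**
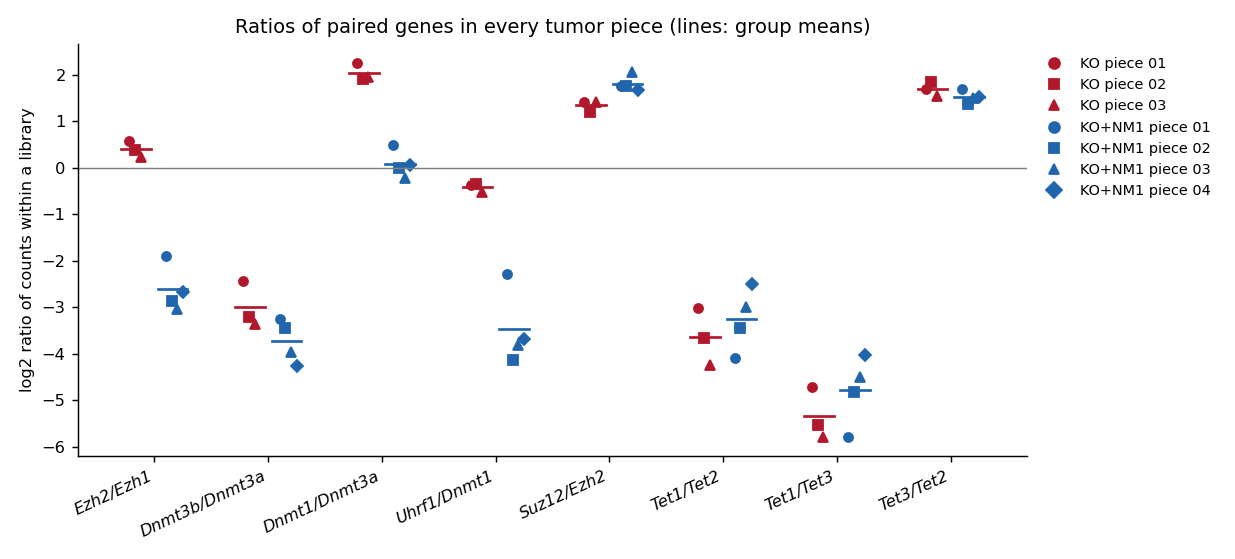
log2 ratio of the counts of paired genes within each library, for the 8 pairs compared, with KO pieces in red, KO+NM1 pieces in blue and lines at group means. Ezh2/Ezh1 lies above 0 in every red point and between -3.04 and -1.89 in the blue ones, and red and blue are also apart for Dnmt1/Dnmt3a, Uhrf1/Dnmt1 and Suz12/Ezh2.

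Levels of different genes were compared per kilobase of annotated exons (RPKM, on the same scaled library sizes). In the KO pieces the order ran from Uhrf1 at 54.8 ± 5.50 RPKM (SD, n = 3) through Dnmt1 at 41.9 ± 2.78, Suz12 at 38.3 ± 4.05, Ezh2 at 11.1 ± 0.810, Ezh1 at 7.54 ± 0.401, Tet3 at 5.63 ± 0.388, Dnmt3a at 4.49 ± 0.292, Dnmt3b at 1.87 ± 0.541 and Tet2 at 1.72 ± 0.0882 to Tet1 at 0.158 ± 0.0708 RPKM. Neighbours in that order did not overlap, except Dnmt1 with Suz12 and Dnmt3b with Tet2. In the KO+NM1 pieces the order began with Ezh1 at 12.3 ± 0.342 RPKM (SD, n = 4), Suz12 at 11.05 ± 3.71 and Dnmt1 at 9.03 ± 4.14. Ezh1 overlapped Suz12 and Suz12 overlapped Dnmt1, while Dnmt1 lay clear of the gene after it. It went on with Tet3 at 4.04 ± 0.970, Dnmt3a at 3.60 ± 0.845, Ezh2 at 2.35 ± 0.879, Uhrf1 at 1.97 ± 2.26, Tet2 at 1.37 ± 0.193 and Dnmt3b at 0.931 ± 0.458 RPKM, a run in which every neighbour overlapped the next. Tet1 was last again, at 0.163 ± 0.0678 RPKM. Uhrf1 thus held the first place of the 10 in KO and the seventh in KO+NM1, and Ezh1 the fifth and the first. Without KO+NM1 piece 01, which held 5.34 RPKM of Uhrf1 against 0.58 to 1.12 RPKM in the others, the Uhrf1 mean was 0.846 RPKM and below that of Tet2, and the other 8 genes kept their places. With the longest transcript as the length, Tet2 came above Dnmt3b in KO and above Uhrf1 in KO+NM1. The levels themselves rose, in KO to 26.7 RPKM for Ezh2, 13.3 for Ezh1, 7.72 for Dnmt3a, 3.15 for Tet2 and 8.62 RPKM for Tet3, and some overlaps changed, with Dnmt1 then clear of Suz12 in KO, Ezh1 clear of Suz12 in KO+NM1, and Dnmt1 overlapping Tet3 in KO+NM1.

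**Figure D4:**
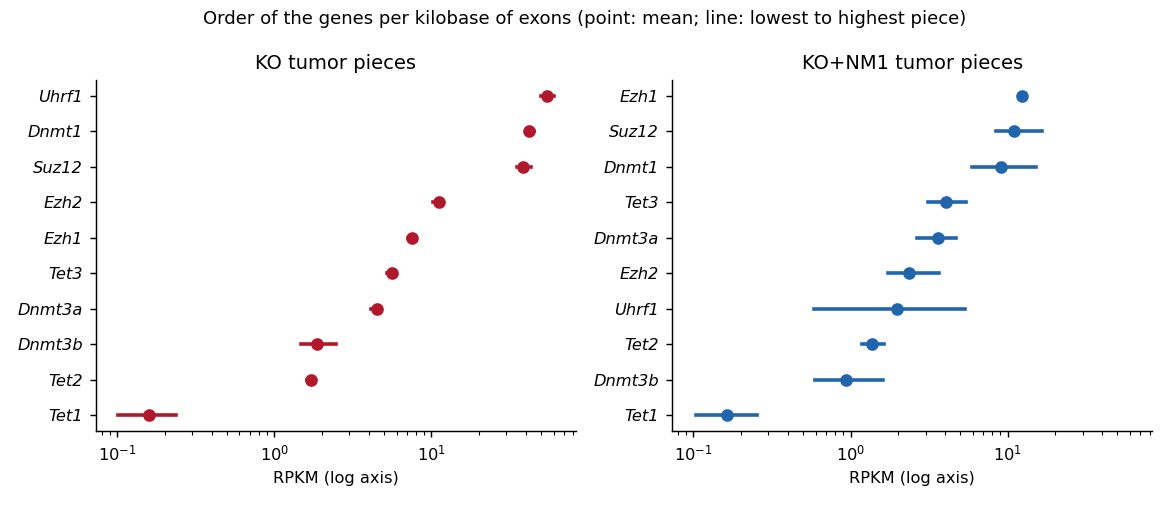
Level of the 10 genes per kilobase of exons (RPKM, log axis), ordered by group mean, with KO on the left and KO+NM1 on the right, points at the mean and lines from the lowest to the highest piece. Uhrf1 heads the KO order at 54.8 RPKM and Ezh1 the KO+NM1 order at 12.3 RPKM, with Tet1 last in both.

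The wider machinery was read from lists of other genes of these pathways. Of all tested genes, 25.7% were higher in KO and 24.5% lower, and the counts of each list stand beside these shares without a test. Of 19 partners and readers of DNA methylation, 18 were tested, and 8 were higher in KO, 3 lower and 7 not called, with a median log2 fold change of 0.66. The largest rise was that of Hells, a chromatin remodeler needed for methylation of repeats, with 127 to 176 CPM in KO and 11.8, 2.32, 1.53 and 3.00 CPM in KO+NM1, so that its log2 fold change was 4.98 (standard error 0.67, adjusted p = 0.00196). Zfp57, which binds methylated imprinting control regions, was next at 2.83 (0.37, 0.00132), where the parentheses hold the standard error and the adjusted p from edgeR, as they do for the genes that follow. Tdg, the glycosylase that removes cytosines oxidized by the Tet enzymes, and Cdca7, the partner of Hells, were also higher, at 2.79 (0.18, 0.000229) and 2.46 (0.33, 0.00142). These 2 were chosen after their values were seen. The 3 lower genes were Dnmt3l, the inactive cofactor of the de novo enzymes, at -2.98 (0.41, 0.00172) with 0.13 to 0.28 CPM in KO and 1.20 to 2.32 CPM in KO+NM1, Idh1, which makes the co-substrate of the Tet enzymes, at -2.55 (0.38, 0.00264), and Zbtb4, a reader of methylated CpG, at -0.80 (0.12, 0.00216).

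Of 11 other PRC2 genes, 10 were tested, and 6 were higher in KO, 1 lower and 3 not called, with a median log2 fold change of 0.97. Eed, the remaining core subunit, was not called, at 50.2 to 55.1 CPM in KO and 66.7, 35.1, 32.8 and 31.2 CPM in KO+NM1 (log2 fold change of 0.36, adjusted p = 0.330). The other genes that were not called were Rbbp4, a histone-binding subunit, at 0.34 (adjusted p = 0.141) and Jarid2, an accessory subunit, at -0.41 (adjusted p = 0.424). Jarid2 had 80.0, 27.6, 32.1 and 32.2 CPM in the KO+NM1 pieces, of which only piece 01 lay above the KO range of 27.2 to 37.9 CPM. The 3 Polycomb-like proteins, which help PRC2 bind chromatin, did not move together. Phf19 was higher in KO, with 31.2 to 36.3 CPM against 14.3, 0.98, 2.62 and 2.51 CPM (log2 fold change 2.74, standard error 0.83, adjusted p = 0.0314). Mtf2, named for its family after its values were seen, was higher at 0.92 (0.23, 0.0152), and Phf1 was lower at -1.80 (0.41, 0.0118). Phf1 had 30.8 to 36.6 CPM in KO and 227, 87.9, 76.9 and 82.6 CPM in KO+NM1, with piece 01 far above the others. Epop, another accessory protein, was higher at 2.17 (0.45, 0.00672).

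Of 21 subunits of PRC1, the complex that ubiquitinates histone H2A, 6 were higher in KO, 3 lower and 12 not called, with a median log2 fold change of 0.10 that ranged from -0.06 to 0.32 over the alternatives. The largest rises were those of Pcgf6 at 1.37 (standard error 0.30, adjusted p = 0.00771) and L3mbtl2 at 1.35 (0.24, 0.00347), both of one variant PRC1. Among the 3 lower genes were Cbx7, a reader of methylated H3K27, with 16.6 to 21.2 CPM in KO and 53.0 to 94.98 CPM in KO+NM1 (-1.95, 0.21, 0.000902), and the ligase subunit Ring1 (-0.94, 0.14, 0.00233). Rnf2, the other ligase, at 0.27 (adjusted p = 0.313) and its partner Bmi1 at 0.10 (adjusted p = 0.708) were not called.

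Of 6 genes for enzymes that remove the histone marks of Polycomb, or for their cofactors, Asxl1 was higher at 1.35 (standard error 0.14, adjusted p = 0.000660). It encodes a cofactor of the H2A deubiquitinase Bap1. Kdm6b, a demethylase of H3K27, was lower, with 46.7 to 53.6 CPM in KO and 105 to 114 CPM in KO+NM1 (-1.15, 0.11, 0.000608), and Asxl3 was lower at -3.34 (0.66, 0.00606). Asxl3 held 2, 1 and 7 counts in the KO pieces, near the floor. The other demethylase Kdm6a at 0.07 (adjusted p = 0.780), Bap1 at -0.02 (adjusted p = 0.927) and Asxl2 at 0.66 (adjusted p = 0.0512) were not called.

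**Figure D5:**
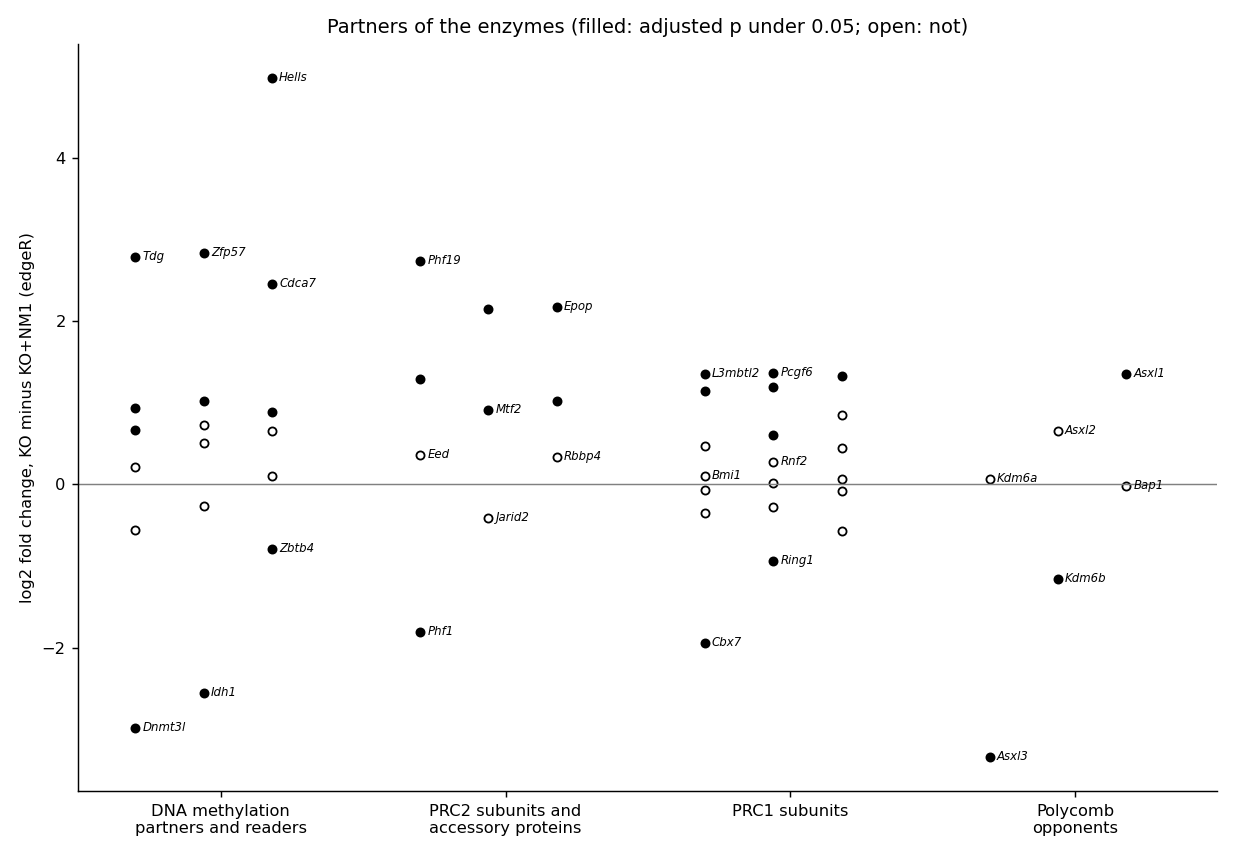
log2 fold change, KO minus KO+NM1, of tested genes of 4 lists, for partners of these enzymes and for removers of Polycomb marks with their cofactors. The last list is labelled Polycomb opponents. Genes named in the text are labelled, and points are filled where the adjusted p from edgeR was under 0.05. Hells is the highest point at 4.98 and Asxl3 the lowest at -3.34, and the PRC1 subunits lie on both sides of 0.

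Genes known to be silenced by these marks were listed as well, again beside shares of 25.7% higher and 24.5% lower over all tested genes. Of 15 germline genes with methylated promoters in body cells, 12 were too low to be tested. Of the other 3, Sycp1, a gene of the synaptonemal complex of meiosis, was higher in KO, with 0.80 to 3.47 CPM against 0.20 to 0.44 CPM (log2 fold change 2.76, standard error 0.56, adjusted p = 0.00636), Sycp3 was lower (-5.72, adjusted p = 0.00177) and Brdt was not called (0.23, adjusted p = 0.744). Sycp3 held 3, 4 and 5 counts in the KO pieces, near the floor.

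Of 17 imprinted genes, 1 was higher in KO, 9 were lower and 7 were not called, with a median log2 fold change of -1.38. The higher gene was the noncoding RNA H19, with 73.4, 484 and 317 CPM in the KO pieces and 2.04, 16.4, 9.34 and 12.5 CPM in the KO+NM1 pieces (4.86, standard error 0.78, adjusted p = 0.00361). The largest falls were those of Nnat, with 12.96 to 33.8 CPM in KO and 134, 1170, 867 and 875 CPM in KO+NM1 (-5.14, 0.68, 0.00272), and Dlk1, a regulator of fat cell formation, with 0.03 to 0.28 CPM against 1.60 to 6.45 CPM (-4.99, 0.74, 0.00277). For H19 and for each of the 9 lower genes, piece 01 was the lowest of the KO+NM1 pieces. For Dlk1 it held 1.60 CPM against 4.59 to 6.45 CPM in the others. For Zrsr1 the pieces were nearly equal, at 23.5 CPM against 23.6 to 26.9 CPM.

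Of 18 classical Polycomb targets, mostly regulators of development, 13 were tested, and 6 were higher in KO, 3 lower and 4 not called. The median log2 fold change of the 13 was 1.499, and it was -0.28 where the filter kept only genes that had 10 counts or more in each library, which removes genes that were near 0 in one group. Of the 6 higher genes, Pax3, Foxa2, Pax6 and Gata4 held 0 counts in at least 1 KO+NM1 piece. The filter admitted them through the KO pieces, where they were high, so the count of 6 says little beside the shares above. Pax3, a regulator of muscle precursors, had 14.9 to 16.1 CPM in KO and 3 counts or fewer in every KO+NM1 piece, which makes it at least 106-fold higher in KO. Foxa2, at 1.46 to 3.13 CPM in KO, was at least 16.8-fold higher by the same floor of 3 counts per library. The 3 lower genes were Tbx5 (-5.14, standard error 0.90, adjusted p = 0.00439), Irx3 (-4.68, 0.39, 0.000610) and Sox17, a gene of endothelial cells (-3.11, 0.29, 0.000685). Tbx5 held 1, 1 and 6 counts in the KO pieces, so the size of its fold change rests on values near the floor. Among the 4 genes that were not called were Gata6 at -0.14 (adjusted p = 0.674), Lhx2 at 1.499 (adjusted p = 0.319) and Tfap2a at -2.85 (adjusted p = 0.109). Cdkn2a, a cell cycle inhibitor known as a target of both complexes, was higher in KO together with Ezh2, with 206 to 330 CPM against 12.6, 1.14, 2.92 and 5.30 CPM (log2 fold change 5.56, standard error 0.70, adjusted p = 0.00167). It was chosen after its values were seen. The muscle, fat and endothelial marker sums given above differ between the same pieces, and their part in these target genes was not tested.

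For each of the 10, the genes with the most similar log2 CPM over the 7 libraries were sought among 12274 genes with a mean of at least 5 CPM. The correlations are a description, since all genes were read in the same 7 libraries of 2 groups. Dnmt1 and Uhrf1 were most like Dek, with Pearson r of 0.999 for both. Ezh2 was most like Cdca7 and Chtf18 (r of 0.9996 and 0.9995), Suz12 like Ppat and Sec23b (0.999 for both), and Ezh1 like the unnamed locus 4932422M17Rik and Colgalt2 (0.999 and 0.998). Such fits were common, since 1733 to 1819 genes had r above 0.95 with each of Dnmt1, Uhrf1, Ezh2 and Suz12, and 889 did with Ezh1. The genes that were not called had fewer like them, with 18 for Dnmt3a, 253 for Dnmt3b, 431 for Tet2, 231 for Tet3 and 0 for Tet1, whose nearest gene was Ptch1 (r of 0.921). Dnmt3a was nearest to Mtmr3 (0.988), Dnmt3b to Eefsec (0.989) and Tet2 to Flii (0.996).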

How the data were processed

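Raw read counts per Ensembl gene were deposited by the authors, without normalization, for 3 KO and 4 KO+NM1 tumor pieces. The library kit was NEBNext Ultra II and the sequencer a NextSeq. Per the labels, reads were trimmed with Trimmomatic 0.36, checked with FastQC, aligned to GRCm38 with HISAT2 2.0.4, sorted with SAMtools 0.1.19 and counted with HTSeq-count. The annotation release and strand setting are not given in the sources used here. A GENCODE M21 symbol was found for 46091 of the 46603 genes, and 0 rows named no gene.

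Counts were analysed in R 4.3.3 with edgeR 4.0.16 (filterByExpr with a minimum count of 10, TMM, quasi-likelihood test), and the log2 fold change is that of KO over KO+NM1. P-values were adjusted by Benjamini-Hochberg across the 16887 tested genes, and a gene was called at an adjusted p under 0.05. No test was run over the list of 10 genes alone. The biological coefficient of variation was 46.7%. Total counts were 24088309 to 28326568 per piece, and floors of 3 counts cover counting error only. Within a tumor, the chi-square per degree of freedom between pieces was 35.2 to 687, so no library repeats another. Ratios used counts plus 0.5 in a library and a two-sided exact permutation test over the 35 splits (scipy 1.17.1). RPKM used the union of annotated exons. Alternatives were other scalings and filters, DESeq2 1.42.0, limma 3.58.1 (voom with sample weights), the piece number as a block and each library left out. The fit was also run on simulated counts with 200 changed genes. Far more genes were called in the real data, so that run does not test the scaling in such a case.

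The 10 genes, the lists and the marker genes were chosen with earlier results of these data known. Named are the 10 genes, the 2 largest called rises and falls of each list at a mean of at least 1 CPM in one group, small classes of up to 5 genes, and the genes most like each of the 10. A few genes named by it are not reported here. The tissue and division marker lists are reported as summed CPM. The gene Ezhip of the PRC2 list was not matched.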

Additional observations from a re-analysis of the deposited data

How the results depend on the processing

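Under 16 alternatives (other scalings and filters, DESeq2, limma voom with sample weights, the piece number as a block and each library left out), Dnmt1, Uhrf1, Ezh2 and Suz12 stayed higher and Ezh1 lower in KO and passed in all 16, with log2 fold changes of 2.04 to 2.62, 4.48 to 6.12, 2.09 to 2.49, 1.59 to 2.04 and -0.87 to -0.52. Dnmt3a, Dnmt3b, Tet2 and Tet3 stayed positive in all 16 and passed in 2 (voom and the fit without KO+NM1 piece 01), where 8 of the 10 genes were higher instead of 4. Tet1 passed in 0 and was positive in 4. With voom, 7038 genes in all were higher (against 4345), and 34 genes of the 4 partner lists (against 21). With at least 10 counts in every library, 3 target genes were higher (against 8), as fewer genes were tested. Leaving out 1 library gave 2910 to 5957 higher and 3226 to 5980 lower genes, 4 to 8 higher (8 without KO+NM1 piece 01) and each time 1 lower of the 10, 13 to 28 higher (13 without KO piece 01) and 9 to 13 lower partner genes, and 8 to 9 higher and 10 to 19 lower target genes. Other causes were not tested. The share of calls that were higher was 51.3%, and 57.7% with library size alone (median shift of 0.18), 44.0% with upper-quartile factors (-0.16) and 46.8% with the size factors of DESeq2 (-0.10). The levels per length without KO+NM1 piece 01, and the marker sums without Lyz2 or the collagens, were added after seeing the data. In the ratios, a prior count of 2 and leaving out a library turned no direction, and for a ratio a left-out library leaves too few splits to reach 0.05.

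Deviations of same-numbered pieces correlated at 0.181, 0.188 and 0.036, and KO pieces 02 and 03 correlated best with another number, so the numbers were not taken to pair pieces. With the number as a block, 3019 genes were higher and 2680 lower in all, against 4345 and 4132, and 4 of the 10 were higher and 1 lower as before.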
